A study of Mus musculus with 8 samples.

Results

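The genes described here are 10 platelet genes, Vwf among them. Most encode proteins by which platelets stick to a damaged vessel wall and to each other. The genes were taken by symbol from the count tables: the glycoprotein genes Gp1ba, Gp1bb, Gp5 and Gp9, the integrin chain genes Itga2b and Itgb3, and Vwf, Selp, Pf4 and Thbs1. All 10 were among the 24222 symbols listed, and all 10 passed the filter on low counts that left 11498 genes for testing, with at least 21 reads in every library. The RNA-seq libraries, 1 per mouse, came from bone marrow haematopoietic stem cells that had been purified by FACS from 4 Kdm4a, b c triple knockout (KO) mice and 4 WT control (WT) mice. All were of strain C57BL6 and were taken 2 weeks after induction. Which markers defined the sort, which agent induced the knockout and whether a Cre allele was used is not stated, nor whether WT mice carried or received the same.

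Platelets adhere under flow when the GPIb-IX-V complex, a receptor built from the products of Gp1ba, Gp1bb, Gp9 and Gp5, catches von Willebrand factor on exposed collagen. The integrin made of the Itga2b and Itgb3 chains then binds fibrinogen and von Willebrand factor and links platelets together. Von Willebrand factor, P-selectin, platelet factor 4 and thrombospondin 1 are stored in platelet granules and appear on the surface or in the surroundings when a platelet is activated. In mouse bone marrow, Vwf and several of these genes are also transcribed in part of the stem cells, where they are used as a readout of a leaning towards platelet production.

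The regions just before the start of 4 of these genes are shown first, since Gp1ba and Itga2b were higher in KO and Gp5 and Pf4 were not, and all of them are classed together as platelet genes. Each is the 250 bases before the RefSeq start site (GRCm38.p6), written 5′ to 3′ on the strand of the gene, with capitals for the letters searched. For GATA factors the letters were AGATAA with its variant AGATAG, together with TGATAA and likewise its variant TGATAG. For ETS factors they were AGGAAG and its variant spelling CGGAAG. Both strands were searched, and no match of the 2 kinds overlapped another. The windows were chr11:70638872-70639121 on the plus strand for Gp1ba, chr11:102469884-102470133 on the minus strand for Itga2b, chr16:30310782-30311031 on the minus strand for Gp5 and chr5:90772185-90772434 on the plus strand for Pf4.
Gp1ba: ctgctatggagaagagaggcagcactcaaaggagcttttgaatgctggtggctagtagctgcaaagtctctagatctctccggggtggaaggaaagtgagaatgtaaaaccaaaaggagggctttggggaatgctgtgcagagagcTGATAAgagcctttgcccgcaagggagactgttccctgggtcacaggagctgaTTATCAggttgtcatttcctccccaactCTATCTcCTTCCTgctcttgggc
Itga2b: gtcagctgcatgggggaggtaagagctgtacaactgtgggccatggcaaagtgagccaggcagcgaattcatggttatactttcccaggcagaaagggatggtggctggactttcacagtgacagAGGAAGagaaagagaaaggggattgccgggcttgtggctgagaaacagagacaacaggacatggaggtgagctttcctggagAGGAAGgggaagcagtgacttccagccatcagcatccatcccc
Gp5: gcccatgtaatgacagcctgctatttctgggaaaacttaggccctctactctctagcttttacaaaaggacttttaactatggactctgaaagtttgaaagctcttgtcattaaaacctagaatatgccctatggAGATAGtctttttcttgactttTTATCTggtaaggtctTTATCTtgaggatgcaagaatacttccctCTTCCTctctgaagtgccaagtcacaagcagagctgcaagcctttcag
Pf4: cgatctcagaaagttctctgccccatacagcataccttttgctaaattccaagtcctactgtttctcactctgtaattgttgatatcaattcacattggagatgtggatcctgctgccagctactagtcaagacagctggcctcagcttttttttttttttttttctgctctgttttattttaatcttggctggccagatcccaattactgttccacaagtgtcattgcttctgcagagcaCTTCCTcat
Gp1ba held 3 GATA matches, at 104, 51 and 23 bases before the start, and 1 ETS match at 16 bases. Itga2b held no GATA match in this window and 2 ETS matches, at 125 and 43 bases. Nearly all of the Itga2b window lies inside the gene in the GENCODE annotation, where its start on the minus strand is at 102470122. The bases before that other start were therefore hardly searched, and the lack of a GATA match does not cover them. Both Itga2b ETS matches lie inside the gene in that annotation. Gp5 held 3 GATA matches and 1 ETS match, and Pf4 held 1 ETS match at 9 bases, with no GATA match in the window. RefSeq promoters were matched for 7 of the 10 genes, and not for Itgb3, Vwf and Thbs1. An ETS match was found in all 7 matched genes, Itga2b included, and a GATA match in 3. Of all 32851 promoters of the same length, 39.2% held an ETS match and 26.5% a GATA match. Letters bound by RUNX factors, TGTGGT and its variant spelling TGCGGT, were found in 1 of the 7 (18.6% of all promoters). The pattern TGANTCA, with any base at N, was found in 2 of the 7 (6.75% of all). It is looser than the letters bound by NF-E2, which have C or G at N. The matches were TGAATCA in Gp1bb and TGATTCA in Selp, so neither has the NF-E2 letters. A match is a description of these letters only, and the windows of genes that rose and of genes that did not both held them.

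Library totals were 5541504 to 14872493 reads in KO and 3594315 to 6044289 reads in WT, with KO mouse 3 the deepest and WT mouse 2 the shallowest. Of the targeted genes, Kdm4c was called lower in KO (log2 fold change -1.71, edgeR adjusted p = 2.05e-05), while Kdm4a (-0.87, adjusted p = 0.132) and Kdm4b (-1.40, adjusted p = 0.142) did not pass over all genes, with every KO library below every WT library for all 3. Kdm4c was at 26.0 to 49.0 reads per 1000000 (CPM) in KO and 98.8 to 148 CPM in WT, Kdm4a at 17.7 to 26.0 and 29.5 to 50.1 CPM, and Kdm4b at 1.11 to 5.15 and 6.71 to 12.1 CPM. Reads are summed over each whole gene, so exons outside a deletion still contribute. The labels name separate mice but no batch.

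In KO stem cells Gp1ba and Itga2b were called higher, 2.26-fold and 1.97-fold, and Thbs1 fell 3.51-fold, while the other 7 genes did not pass the test over all genes. Of the 10 genes, 2 were higher in KO by edgeR's quasi-likelihood test at an adjusted p under 0.05, against 0.252% of all genes tested, and 1 was lower, against 0.33%. The 10 genes were brought together with earlier results of these data known, so these counts are a description. Before adjustment, 6 had a p under 0.05 with a higher level and 2 with a lower one, against 5.76% and 5.44% of all genes. A fitted fold above 1 was seen for 7 of the 10 (50.2% of all genes). Their log2 fold changes had a median of 0.52, against 0.00 over all genes. The 8 tested genes of a list of mature megakaryocyte and platelet markers outside the 10 had nearly the same median, 0.51, with 6 above a fold of 1, and the part of such cells in the levels of the 10 genes was not tested. All KO libraries lay above all WT libraries for Gp1ba, Itga2b and Vwf, 3 in all (2.88% of all genes), and below them for Thbs1 (2.93%). In bulk libraries, more cells that carry an RNA and more of it per cell cannot be told apart.

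**Figure D1:**
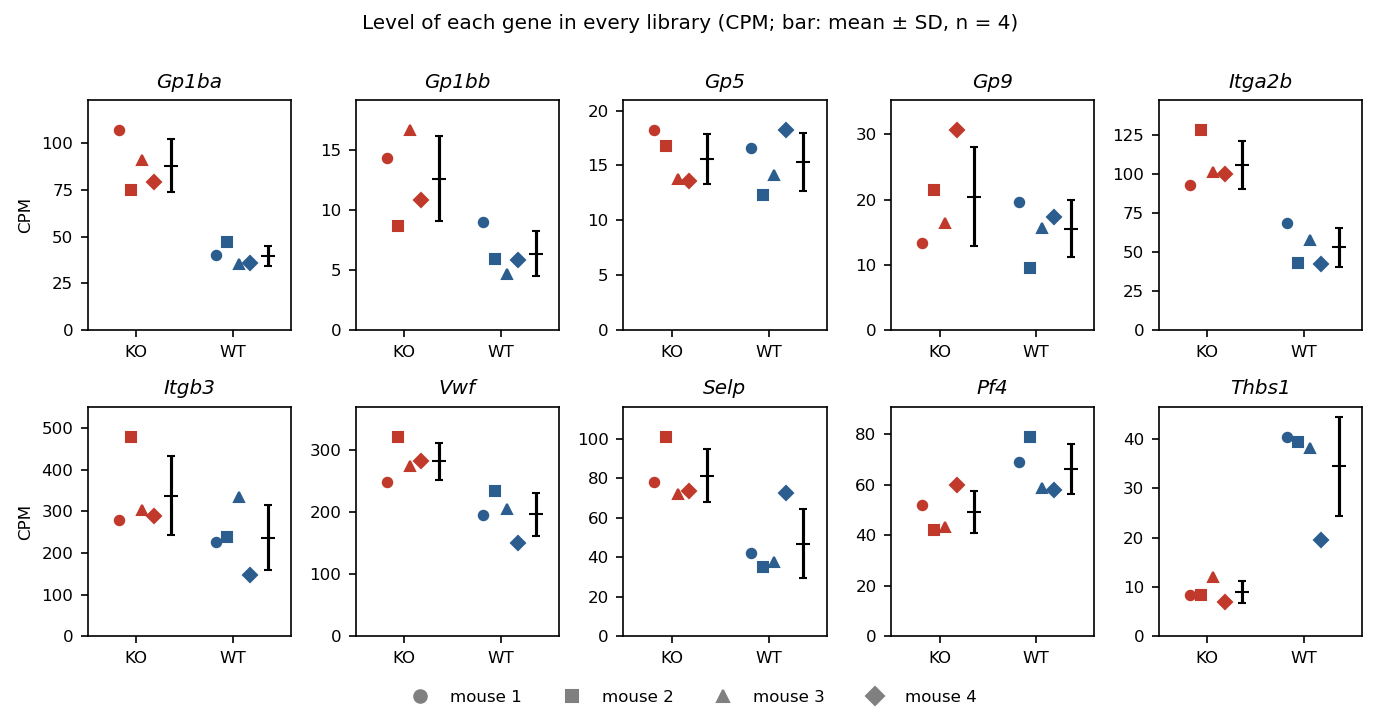
Level of each of the 10 genes in every library, in CPM on axes that start at 0, with KO libraries in red left of WT libraries in blue, symbols by mouse number and black bars for the mean ± SD (n = 4). The KO and WT libraries do not overlap for Gp1ba, Itga2b, Vwf and Thbs1, and overlap for the other 6 genes.

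The ligand-binding chain of the von Willebrand factor receptor, encoded by Gp1ba (chromosome 11, 70639122 to 70642036, plus strand, GRCm38), had the smallest p of the 10 genes. Gp1ba was at 107, 75.0, 91.1 and 79.3 CPM in KO mice 1 to 4, against 40.4, 47.3, 35.3 and 35.7 CPM in WT mice 1 to 4. The lowest KO library was well above the highest WT library. Gp1ba averaged 88.1 ± 14.3 CPM in KO and 39.6 ± 5.59 CPM in WT (SD, n = 4), a log2 fold change of 1.18 (SE 0.189, edgeR adjusted p = 0.00128). Over the 16 alternative settings and left-out libraries the log2 fold change stayed between 1.08 and 1.25 and the call was kept in each.

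Gp1bb encodes the chain bound to GPIbα by a disulphide bond, and it had the fewest reads of the 10 genes in WT. Gp1bb was at 14.3, 8.63, 16.6 and 10.8 CPM in KO mice 1 to 4, against 9.01, 5.87, 4.70 and 5.81 CPM in WT mice 1 to 4. Of the 4 KO libraries, 3 lay above the highest WT library, and KO mouse 2 lay below WT mouse 1. The log2 fold change was 1.04, close in size to that of Gp1ba, but with an SE of 0.38 it did not pass (edgeR adjusted p = 0.27). Gp1bb rested on 58 to 248 reads in KO and 21 to 52 reads in WT. In the GENCODE annotation 91.1% of the Gp1bb exons are also exons of Sept5 on the same strand (chromosome 16, 18620317 to 18622403, minus strand), so reads may have been lost or assigned to the other gene, and its level is uncertain. Sept5 itself was at 0.508 ± 0.71 CPM in KO and 1.01 ± 1.13 CPM in WT (SD, n = 4).

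Gp9 and Gp5, which complete the complex, gave no call. Gp9 (chromosome 6, 87778072 to 87779768, plus strand), needed to bring the complex to the cell surface, was at 13.4, 21.4, 16.4 and 30.6 CPM in KO mice 1 to 4, against 19.6, 9.51, 15.7 and 17.4 CPM in WT mice 1 to 4. The groups overlapped, with KO mouse 4 the highest and WT mouse 2 the lowest of the 8 libraries. Its log2 fold change was 0.27 (SE 0.31, edgeR adjusted p = 0.815). Gp5 (chromosome 16, 30307685 to 30310779, minus strand), the subunit cut by thrombin, was at 18.2, 16.8, 13.8 and 13.6 CPM in KO mice 1 to 4, against 16.6, 12.3, 14.1 and 18.2 CPM in WT mice 1 to 4. Its ranges almost coincided, with a log2 fold change of -0.02 (SE 0.289, edgeR adjusted p = 0.987), and the sign of this value turned in 6 of the 16 alternatives.

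The level of Gp1ba relative to Gp1bb, 2 chains of the same receptor, overlapped between the groups. The ratio of Gp1ba to Gp1bb in CPM, with 0.5 CPM added to each, was 7.26, 8.27, 5.36 and 7.08 in KO mice 1 to 4, against 4.30, 7.49, 6.88 and 5.73 in WT mice 1 to 4. The log2 ratio differed by 0.21 between the group means (KO minus WT), with an exact two-sided permutation p of 0.429 for 4 against 4 libraries, which is also the value adjusted over the 2 ratios tested. Summed over the 4 genes of the complex, the level was 122 to 153 CPM in KO and 69.7 to 85.6 CPM in WT. Most of this sum and of its difference came from Gp1ba, with a mean of 88.1 of 137 CPM in KO and 39.6 of 76.9 CPM in WT. The sum therefore does not show a rise of the other chains, none of which was called.

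Vwf (chromosome 6, 125546774 to 125686679, plus strand), whose product is the ligand of this receptor, was at 249, 322, 274 and 283 CPM in KO mice 1 to 4, against 196, 235, 205 and 151 CPM in WT mice 1 to 4. The groups did not overlap, but the gap from KO mouse 1 to WT mouse 2 was small. Vwf averaged 282 ± 30.2 CPM in KO and 197 ± 35.0 CPM in WT (SD, n = 4). Its log2 fold change of 0.53 (SE 0.136) had an edgeR adjusted p of 0.0699 and did not pass over all genes. The exact permutation p for n = 4 against 4 was 0.0286, the smallest that this design can give. It is unadjusted and only restates the lack of overlap, and it was the same for Gp1ba, Itga2b and Thbs1. DESeq2 (adjusted p = 0.0409) and edgeR without a filter on low counts (adjusted p = 0.0173) did call it higher, and over all 16 alternatives the adjusted p ran from 0.0173 to 0.235. Among the 10 genes, Vwf had the smallest spread within KO, with a coefficient of variation of 10.7%, against 17.8% in WT.

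Itga2b (chromosome 11, 102453297 to 102470122, minus strand), the αIIb chain known as CD41, was at 93.0, 128, 101 and 100.1 CPM in KO mice 1 to 4, against 68.7, 43.1, 57.6 and 42.6 CPM in WT mice 1 to 4. Every KO library was above every WT library. Itga2b averaged 105 ± 15.2 CPM in KO and 53.0 ± 12.6 CPM in WT (SD, n = 4), a log2 fold change of 0.98 (SE 0.183, edgeR adjusted p = 0.00737). The call was kept in all 16 alternatives, with adjusted p of at most 0.0435.

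Its partner chain Itgb3 (chromosome 11, 104608000 to 104670476, plus strand), which also pairs with the αV chain, was at 278, 479, 304 and 289.7 CPM in KO mice 1 to 4, against 227, 239, 335 and 147 CPM in WT mice 1 to 4. KO mouse 2 stood far above the others and WT mouse 3 lay above 3 of the 4 KO libraries, so the groups overlapped. The log2 fold change was 0.52 (SE 0.223, edgeR adjusted p = 0.399), and edgeR without a filter on low counts called it higher (adjusted p = 0.0144). The ratio of Itga2b to Itgb3, with 0.5 CPM added to each, was 0.336, 0.267, 0.333 and 0.347 in KO mice 1 to 4, against 0.305, 0.182, 0.173 and 0.293 in WT mice 1 to 4. KO mouse 2 lay below WT mice 1 and 4. The log2 ratio differed by 0.47 (KO minus WT), with an exact two-sided permutation p of 0.114 for n = 4 against 4 and 0.229 adjusted over the 2 ratios. A larger change of Itga2b than of Itgb3 was therefore not shown. Itgav, the αV chain gene, was at 45.1 ± 3.20 CPM in KO and 60.5 ± 3.15 CPM in WT (SD, n = 4), a log2 fold change of -0.42 that did not pass (edgeR adjusted p = 0.371).

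**Figure D2:**
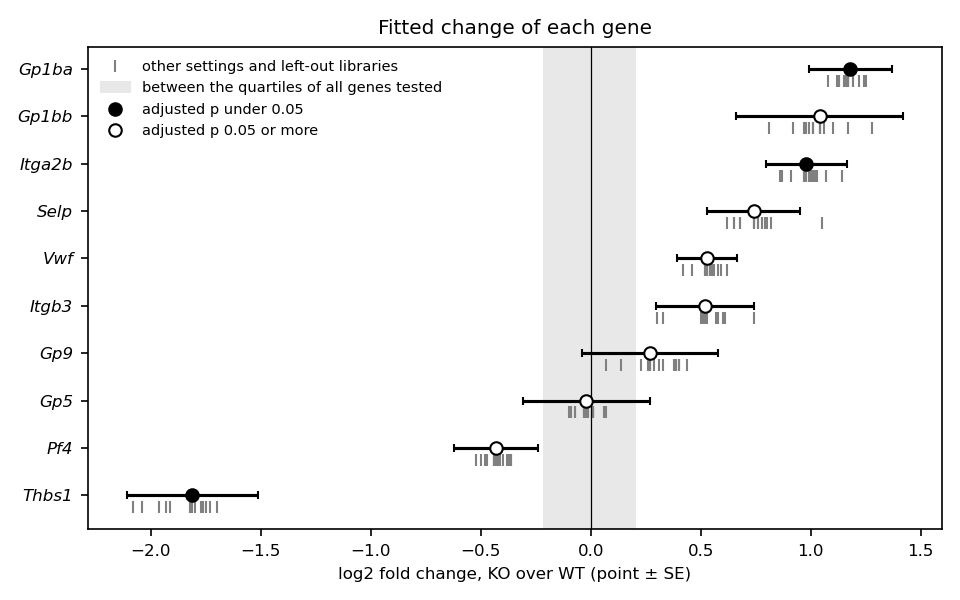
Fitted log2 fold change, KO over WT, of each of the 10 genes (point ± SE), filled where the edgeR adjusted p was under 0.05. Grey ticks are the same value under the 16 alternative settings and left-out libraries, and the grey band lies between the quartiles of all 11498 genes. Thbs1 lies far to the left at -1.81 and Gp1ba far to the right at 1.18.

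Selp (chromosome 1, 164115264 to 164150026, plus strand) encodes P-selectin, which moves from granules to the surface and binds white blood cells. Selp was at 78.3, 101, 71.9 and 73.7 CPM in KO mice 1 to 4, against 42.3, 35.0, 37.8 and 72.6 CPM in WT mice 1 to 4. The overlap came from WT mouse 4 alone, which lay just above KO mouse 3. The log2 fold change was 0.74 (SE 0.211, edgeR adjusted p = 0.123). Selp was called higher without WT mouse 4 (log2 fold change 1.05, edgeR adjusted p = 0.0211), by DESeq2 (adjusted p = 0.043) and without a filter on low counts (edgeR adjusted p = 0.0216). On the other strand, 14.1% of the Selp exons overlap non-coding genes, whose reads may not have been separated.

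Pf4 (chromosome 5, 90772435 to 90773383, plus strand), a chemokine of platelet alpha granules, had a fold below 1. Pf4 was at 52.0, 42.0, 43.2 and 59.8 CPM in KO mice 1 to 4, against 69.0, 78.9, 58.8 and 57.8 CPM in WT mice 1 to 4. Of the 4 KO libraries, 3 lay below the lowest WT library and KO mouse 4 lay within the WT range. The log2 fold change was -0.43 (SE 0.189, edgeR adjusted p = 0.376), and it did not pass in any of the 16 alternatives. Ppbp, the chemokine gene of the same granules that is the precursor of β-thromboglobulin, was at 9.86 to 20.9 CPM in KO and 10.5 to 15.1 CPM in WT (n = 4, log2 fold change 0.50, edgeR adjusted p = 0.6).

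Thbs1 (chromosome 2, 118111876 to 118127133, plus strand) encodes thrombospondin 1, a matrix glycoprotein of alpha granules that many other cells also make. Thbs1 was at 8.29, 8.35, 12.1 and 7.06 CPM in KO mice 1 to 4, against 40.4, 39.4, 38.2 and 19.5 CPM in WT mice 1 to 4. All KO libraries lay below all WT libraries, and WT mouse 4 lay well below the other WT libraries. Thbs1 averaged 8.95 ± 2.18 CPM in KO and 34.4 ± 9.95 CPM in WT (SD, n = 4), with 38 to 181 reads in KO and 121 to 233 reads in WT. Its log2 fold change was -1.81 (SE 0.299, edgeR adjusted p = 0.00173), and it was between -2.08 and -1.70 over the 16 alternatives, in each of which the call was kept. A non-coding gene on the other strand overlaps 3.42% of its exons. Of its receptors, Cd47 was at 736 ± 64.4 CPM in KO and 721 ± 59.3 CPM in WT (SD, n = 4), and Cd36 at 2.42 ± 1.36 and 1.94 ± 2.06 CPM.

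Thbs1 is known to respond to stimulation in many cells, so the early response genes were set beside it. Of 13 such genes, all of them tested, edgeR, DESeq2 and limma voom each called 0, and 0 had an unadjusted p under 0.05 by edgeR. None of the 13 had a fitted fold above 1, with a median of -0.29 on the log2 scale. Zfp36, an RNA-binding protein gene and the one with the most reads, was at 372 to 1172 CPM in KO and 671 to 1525 CPM in WT. Their summed level was 1953, 2312, 4072 and 4721 CPM in KO mice 1 to 4, against 5154, 5399, 3777 and 2509 CPM in WT mice 1 to 4. WT mouse 4 was the lowest WT library for both the sum and Thbs1, whereas KO mouse 4 had the highest KO sum and the lowest Thbs1. The part of these genes in the Thbs1 result was not tested.

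Set per kb of the longest coding transcript, the order of the 10 genes within a library can be compared roughly. All exons of a gene together can be longer, at 16.1 kb for Vwf against the 8.83 kb used, and 5.45 against 3.44 kb for Itga2b. Which exons were counted is not stated, and the level of Gp1bb is uncertain, so the order depends on the length chosen. In KO the levels were 83.8 ± 14.1 CPM per kb for Pf4 and 58.4 ± 16.4 CPM per kb for Itgb3 (SD, n = 4), whose ranges over libraries overlapped. Gp1ba (32.5 CPM per kb), Vwf (31.9), Itga2b (30.7), Selp (23.6) and Gp9 (23.2) followed, and each overlapped the next. Gp5 at 7.10 and Gp1bb at 6.03 CPM per kb came next, and Thbs1 was apart from all others at 1.53 ± 0.373 CPM per kb. In WT, Pf4 stood apart at 112 ± 16.9 CPM per kb. Itgb3 (40.9), Vwf (22.2), Gp9 (17.6), Itga2b (15.4), Gp1ba (14.6) and Selp (13.6 CPM per kb) followed in a run in which each overlapped the next. Gp5 (6.97), Thbs1 (5.88) and Gp1bb (3.05 CPM per kb) were the lowest in WT and overlapped in turn. Gp1ba thus stood at place 3 of 10 in KO and 6 of 10 in WT, and Thbs1 at place 10 in KO and 9 in WT, though most neighbouring places did not differ beyond the spread.

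**Figure D3:**
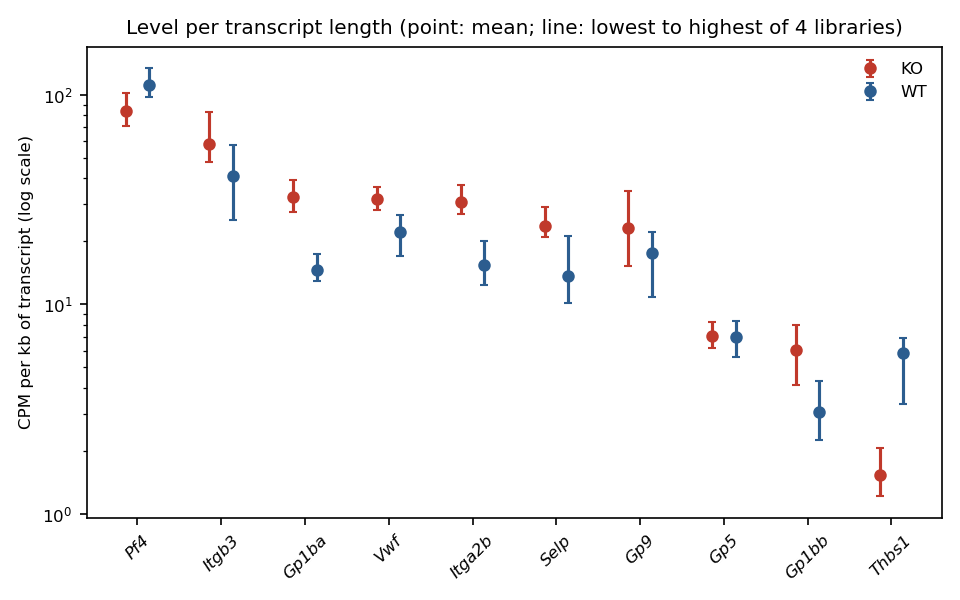
Level per kb of the longest coding transcript, on a log axis, for the 10 genes in KO (red, left) and WT (blue, right). Points are means and lines run from the lowest to the highest of 4 libraries; genes are ordered by the KO mean, with Pf4 highest and Thbs1 lowest.

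The mice did not keep 1 order over the 10 genes. KO mouse 2 was the highest KO library for Itga2b, Itgb3, Vwf and Selp, and at the same time the lowest for Gp1ba, Gp1bb and Pf4. WT mouse 4 was the lowest WT library for Itga2b, Itgb3, Vwf, Pf4 and Thbs1, and the highest for Selp and Gp5. The largest coefficient of variation was 36.8% in KO, for Gp9, and 37.1% in WT, for Selp.

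As a description of which other genes had a like pattern, log2 CPM centred on the mean of the 8 libraries was compared with that of 6713 genes with a mean of at least 20 CPM. The gene nearest to Vwf was Sdpr, now called Cavin2, a caveola-associated protein abundant in platelets, with a mean absolute difference of 0.0809 on the log2 scale over the 8 libraries. Sdpr averaged 248 ± 26.2 CPM in KO and 178 ± 38.5 CPM in WT (SD, n = 4). Cplx2, Ticrr and Klhl23 were the next nearest to Vwf, at 0.0918, 0.104 and 0.111. The genes nearest to Gp1ba were Cd180, Ankle1, P3h2 and Podxl, at 0.159 to 0.198, and its nearest fellow among the 10 was Gp1bb at 0.251, at place 15. Cd180 encodes a relative of the Toll-like receptors and Podxl a sialomucin related to CD34. Nearest to Thbs1 were Dnah8, St6galnac3, Cd63 and S1pr4, at 0.31 to 0.36. Cd63 encodes a tetraspanin of platelet dense granules and lysosomes, and was at 24.9 ± 3.01 CPM in KO and 64.9 ± 12.2 CPM in WT (SD, n = 4).

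Among 7 lists of other genes by which platelets adhere, respond and form, Adam10 was the only gene past the threshold, by edgeR, by DESeq2 and by limma voom alike. Among 9 other adhesion and collagen receptor genes, 6 were tested and edgeR called 0 of them, with 2 lower at an unadjusted p under 0.05. These were Itga2, a collagen-binding integrin chain, at 4.59 ± 2.46 CPM in KO and 9.58 ± 0.823 CPM in WT, and Fcer1g, the signalling chain of the collagen receptor GPVI, at 7.19 ± 4.61 and 14.6 ± 4.33 CPM (SD, n = 4). Among 17 genes of integrin activation, all tested, 0 passed and 0 had an unadjusted p under 0.05, with a median of 0.05 on the log2 scale. The smallest p-values were those of Prkcq, a kinase, at 146 ± 26.0 CPM in KO and 120.0 ± 9.30 CPM in WT (SD, n = 4), and Flna, filamin A, at 192 to 268 CPM in KO and 247 to 358 CPM in WT. Fermt3, which encodes the kindlin that activates this integrin, was at 141 ± 24.9 CPM in KO and 135 ± 22.4 CPM in WT (SD, n = 4). Tln1, talin, was at 448 to 710.4 CPM in KO and 582 to 809 CPM in WT.

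Of 10 agonist receptor genes, 7 were tested and 0 passed edgeR's test, with 1 higher and 1 lower at an unadjusted p under 0.05. F2rl2, a thrombin receptor and the higher one, was at 59.6 ± 16.8 CPM in KO and 40.8 ± 9.72 CPM in WT (SD, n = 4). Of 23 granule genes, 20 were tested and 0 passed, with 4 higher at an unadjusted p under 0.05 and a median log2 fold change of 0.20. Clu, a granule protein, was at 17.3 ± 2.58 CPM in KO and 9.16 ± 3.44 CPM in WT, and Vps33b, needed to form alpha granules, at 74.1 ± 4.29 and 52.0 ± 7.66 CPM (SD, n = 4). Of 14 cytoskeletal, enzyme and maturation genes, 13 were tested and 0 passed, with 2 higher at an unadjusted p under 0.05, which were Sdpr and Tpm4. The tropomyosin gene Tpm4 was at 72.7 ± 15.3 CPM in KO and 48.8 ± 10.8 CPM in WT (SD, n = 4).

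Of 21 genes of megakaryocyte transcription factors, all tested, 0 passed edgeR's test and 2 were higher at an unadjusted p under 0.05, with a median log2 fold change of -0.02. Zfpm1, which encodes the GATA1 partner FOG1 and was 1 of these, was at 81.2 ± 16.2 CPM in KO and 60.8 ± 8.14 CPM in WT (SD, n = 4). Gata1 was at 24.0 ± 4.79 CPM in KO and 17.4 ± 3.11 CPM in WT, and Fli1, an ETS factor of megakaryocytes, at 743 ± 208 and 695 ± 101 CPM (SD, n = 4). Among 15 partners, cleaving enzymes and relatives of Vwf, Selp and Thbs1, 8 were tested and 1 passed. Adam10, a surface protease that sheds GPVI among many proteins, fell to 231 ± 21.3 CPM in KO, against 353 ± 9.80 CPM in WT (SD, n = 4, log2 fold change -0.62, edgeR adjusted p = 0.00641). Adam17, which sheds GPIbα, was at 163 ± 26.6 CPM in KO and 159 ± 19.0 CPM in WT (SD, n = 4). Selplg, the P-selectin ligand gene, was at 22.2 ± 3.75 and 22.3 ± 4.14 CPM.

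**Figure D4:**
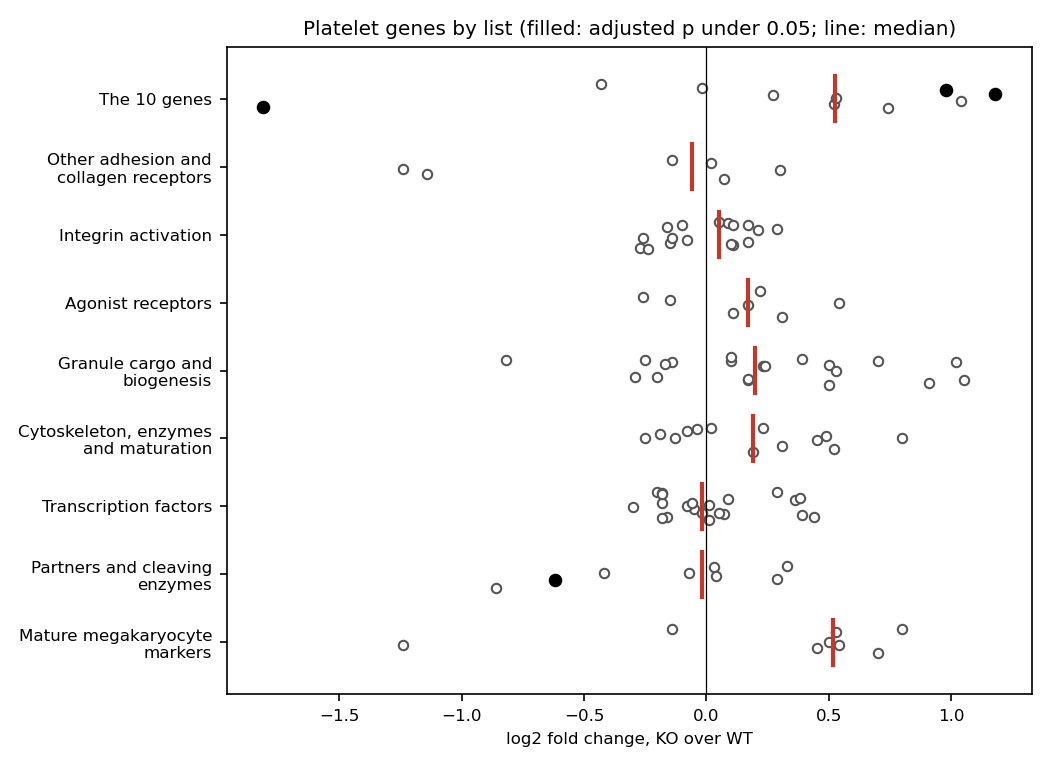
Log2 fold change, KO over WT, of the 10 genes (top row) and of the tested genes of 7 lists of platelet and megakaryocyte genes and of the marker list. Points are genes, filled where the edgeR adjusted p was under 0.05, and red lines are medians; the median of the 10 genes is 0.52, those of the 7 lists lie between -0.06 and 0.20, and that of the mature megakaryocyte markers, in the bottom row, is 0.51. Adam10 is the only filled point outside the top row.

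Of 12 markers of mature megakaryocytes and platelets other than the 10 genes, 8 were tested and 0 passed by edgeR, DESeq2 or limma voom, with 1 higher and 1 lower at an unadjusted p under 0.05 by edgeR. Treml1, a receptor of platelet granules, was at 14.1 ± 2.32 CPM in KO and 8.19 ± 3.87 CPM in WT, and Nrgn, neurogranin, at 28.4 ± 6.49 and 19.1 ± 5.18 CPM (SD, n = 4), and neither passed. The list was mixed, with a fitted fold above 1 for 6 of the 8 tested. Itga2, the lower one, was at 4.59 ± 2.46 CPM in KO and 9.58 ± 0.823 CPM in WT. P2ry12, which was not tested, was at 1.01 ± 0.497 and 2.12 ± 1.18 CPM (SD, n = 4). The summed level of the 12 was 608 to 702 CPM in KO and 568 to 784 CPM in WT. Most of these reads were those of Mmrn1, which stem cells also express, at 529.9 ± 58.5 CPM in KO and 586 ± 101 CPM in WT (SD, n = 4). The GPVI gene Gp6 had at most 1 read in any library, Clec1b was at 1.34 ± 0.334 CPM in KO and 0.50 ± 0.252 CPM in WT, and the platelet tubulin gene Tubb1 at 3.62 ± 1.05 and 2.07 ± 1.16 CPM (SD, n = 4). Of 12 endothelial markers, which matter because endothelium makes Vwf and Selp, 6 were tested and 0 passed by edgeR, DESeq2 or limma voom, with 0 at an unadjusted p under 0.05 by edgeR. Their sum was 83.8 to 119 CPM in KO and 102 to 127 CPM in WT, and the defining genes Cdh5, Plvap and Cldn5 were each under 1 CPM in both groups on average. Others of the list were not, with Robo4 at 29.4 ± 4.36 CPM in KO and 33.3 ± 5.62 CPM in WT. Emcn was at 21.4 ± 6.74 and 23.0 ± 2.46 CPM (SD, n = 4). A fitted fold above 1 was seen for 2 of the 6 tested. These were Sox18, at 6.01 ± 3.23 and 3.27 ± 1.96 CPM, and Flt4, at 2.93 ± 1.62 and 1.83 ± 1.86 CPM. The part of endothelial cells in the levels of the 10 genes was not tested. Tie1, which stem cells also express, had the most reads of this list, at 37.7 ± 8.58 CPM in KO and 48.1 ± 6.36 CPM in WT (SD, n = 4).

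Of 12 stem cell markers, all were tested and 0 passed by edgeR or limma voom, with 1 higher and 5 lower at an unadjusted p under 0.05; DESeq2 called Ly6a higher and Mecom lower. Their summed level was 3694 to 4082 CPM in KO and 4502 to 4829 CPM in WT, without overlap. Hlf, a stem cell transcription factor, was at 1214 ± 102 CPM in KO and 1475 ± 133 CPM in WT. Slamf1, a common sort marker, was at 100.1 ± 5.66 CPM in KO and 104 ± 5.14 CPM in WT, and Procr at 49.9 ± 13.3 and 60.9 ± 19.2 CPM (SD, n = 4). The erythroid list, 13 genes, summed to 1244 to 1441 CPM in KO and 2197 to 2429 CPM in WT, with most of the reads from Car2, which fell (1306 ± 84.9 CPM in KO and 2286 ± 111 CPM in WT, SD, n = 4, edgeR adjusted p = 4.19e-06), and Hbb-bs, Hbb-bt, Hba-a1 and Hba-a2 at 0 reads. Of its 6 tested genes, 0 had a fitted fold above 1 and 3 were lower at an unadjusted p under 0.05 by edgeR. DESeq2 called Car1 lower as well as Car2, while edgeR and limma voom called Car2 alone. Macrophage and dendritic cell markers, 12 genes, summed to 203 to 272 CPM in KO and 92.4 to 195 CPM in WT; Cd68 and Cd74 rose and Mrc1 fell by edgeR and DESeq2, but limma voom called Cd74 alone, with Cd74 at 86.5 ± 22.4 CPM in KO and 37.0 ± 19.1 CPM in WT (SD, n = 4), while C1qa had at most 1 read and Siglech 0 reads in any library. Sums of neutrophil and monocyte markers were 324 to 386 CPM in KO and 269 to 323 CPM in WT. Those of mast cell and basophil markers were at most 8.07 and 9.79 CPM, of lymphoid markers at most 35.4 and 34.7 CPM, and of stromal markers at most 24.5 and 29.3 CPM, with 0 genes of these 4 lists called by edgeR, DESeq2 or limma voom and 1 higher at an unadjusted p under 0.05 by edgeR, a neutrophil and monocyte gene. The genes of these lists with the most reads were Lyz2 (189 ± 26.7 CPM in KO and 171 ± 31.0 CPM in WT, SD, n = 4), Cpa3 (2.59 ± 0.648 and 4.79 ± 3.34 CPM), Nkg7 (17.2 ± 7.76 and 12.8 ± 6.42 CPM) and Col1a2 (13.8 ± 2.38 and 14.4 ± 5.77 CPM), and Fcnb, Prss34, Mcpt4 and Cd3g had 0 reads in every library. The part of the marker sums that differed between the groups in the levels of the 10 genes was not tested.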

How the data were processed

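The authors deposited 1 table of raw read counts by gene symbol for each mouse. Per the labels' protocols, they amplified cDNA from total RNA of sorted cells with the Nugen Ovation system, sequenced it on an Illumina NextSeq, mapped reads with STAR (2.4.0d-2 per the submitters' processing notes, which name the build mm10), counted them with htseq-count and tested genes with DESeq2. For the counting step, neither annotation nor strand setting is stated. Amplified reads carry no molecular identifiers, so errors from counting are a lower limit, and a count is of reads and not of molecules.

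The unmodified counts were fitted with edgeR 4.0.16 (R 4.3.3): filterByExpr (minimum count 10, minimum total 15), trimmed mean of M-values (TMM) scaling, and the quasi-likelihood test with robust dispersion and genotype as the only term. P-values are two-sided with Benjamini-Hochberg adjustment across the 11498 genes tested, and 0.05 was the threshold. A standard error (SE) is the absolute log2 fold change over the root of its F statistic. CPM are counts over TMM-adjusted library totals. A floor of 3 reads per library is 0.201 to 0.557 CPM in KO and 0.484 to 0.839 CPM in WT. Exact permutation tests used SciPy 1.17.1. Positions and lengths are from GENCODE M21 (GRCm38), and promoters from RefSeq (GRCm38.p6).

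The 10 genes and all lists were chosen with earlier results of these data known. All 10 are named. From each platelet list, genes past the threshold were named, or otherwise the 2 with the smallest p. From each marker list the gene with the highest mean level and genes without reads were named. Some genes that this rule names are not reported here. Fermt3, Tln1, Ppbp, Itgav, Cd47, Cd36, Gata1, Fli1, Adam17, Selplg, Sept5, Gp6, Clec1b, Tubb1, Cdh5, Plvap, Cldn5, Slamf1, Procr, Ly6a, Mecom, Cd68, Mrc1 and C1qa were added, after their values were seen. Treml1, Nrgn, P2ry12, Sox18, Flt4, Robo4, Emcn and Car1 were likewise added outside the rule, with their values known. Alternatives were DESeq2 size factors, no TMM, no filter, a filter of 5 CPM in 4 libraries, DESeq2 1.42.0, limma voom (limma 3.58.1) with sample weights, the mouse number as a block, thinning to 3594315 reads, and omission of each library. On simulated counts for this comparison with 11312 genes tested, edgeR recovered 25%, 70% and 94% of genes raised 1.5-fold, 2-fold and 4-fold, and 6 of 142 calls were false. No pair of libraries of a group agreed within sampling noise (chi-square per degree of freedom of at least 11.4).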

Additional observations from a re-analysis of the deposited data

Results flagged for a closer look

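Among the 20 sets of 4 libraries examined, 10 genes in each genotype, a single library stood far from the other 3 in 2 sets, by Dixon's test at the 95% level; chance flags about 1 in 20. Itgb3 in KO mouse 2 was at 479 CPM, against 278 to 304 CPM in the other KO libraries. Thbs1 in WT mouse 4 was at 19.5 CPM, against 38.2 to 40.4 CPM in the other WT libraries, and remained above every KO library.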

How the results depend on the processing

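Gp1ba, Itga2b and Thbs1 kept their direction and call in all 16 alternatives, and Gp1bb, Gp9, Itgb3, Vwf, Selp and Pf4 kept their direction. The 67 genes called became 199 without a filter on low counts and 154 by DESeq2, and 35 to 70 with 1 library left out (44 without KO mouse 4 or without WT mouse 2, 35 without WT mouse 3). Of the 10 genes, 5 were then higher without a filter and 4 by DESeq2, and 2 to 3 with 1 library left out; 1 was lower throughout. The log2 fold change of Gp5 turned positive, to 0.01 by DESeq2, 0.01 with the replicate block, and up to 0.07 without KO mouse 3 (0.06), KO mouse 4 (0.01), WT mouse 1 (0.01) or WT mouse 4 (0.07), within a range of -0.10 to 0.07 over the left-out libraries; the cause was not tested. Same-numbered mice did not deviate together (correlations of -0.094 to -0.012), so their numbers were not taken as a pairing. With the replicate block 57 genes were called, the ratio differences stayed at 0.21 (Gp1ba to Gp1bb) and 0.47 (Itga2b to Itgb3), and no other call among the 10 genes changed. The 2 ratio differences were 0.05 to 0.33 and 0.33 to 0.61 with 1 library left out. With 3 against 4 libraries an exact test cannot pass the threshold, and the 21 to 52 reads of Gp1bb in WT limit what could be detected.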

Other observations

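Read as shares of the summed CPM of the 10 genes, which removes any change common to all of them, Thbs1 took 0.695% to 1.28% in KO and 3.44% to 5.55% in WT, and Pf4 took 3.50% to 6.31% in KO and 7.33% to 10.6% in WT, both without overlap. Itga2b took 10.2% to 10.7% in KO and 5.77% to 9.43% in WT. The shares of Gp1ba overlapped, at 6.24% to 11.7% in KO and 4.40% to 6.34% in WT. The shares of Vwf (26.8% to 29.9% in KO and 25.5% to 31.5% in WT) and of Itgb3 (30.5% to 39.9% and 25.8% to 41.8%) also overlapped. Shares depend on each other, since a rise of 1 lowers the rest, and they were not tested.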
